A study of Mus musculus with 14 samples.

Results

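The changes shared by both targeting hairpins were taken from all 14 libraries of the series, 7 with a knockdown hairpin and 7 with the control hairpin shSCR. Gene expression was measured by sequencing of polyadenylated RNA from 4T1 spheroids, 3-dimensional aggregates of a mouse triple-negative mammary carcinoma line. The RNA was the input of a polysome experiment, a part of the cytosolic lysate of spheroids washed with cycloheximide. All spheroids were grown for 5 days in lung-like medium, whose nutrient levels resemble those of lung interstitial fluid. The knockdown libraries were ASP shGRIN2D (n = 3) and ASP shDHPS (n = 4), both with 700 µM aspartate added, and the control libraries were ASP shSCR (n = 4, with the same aspartate) and NoASP shSCR (n = 3, without added aspartate). The paper describes 4 replicates per condition, and ASP shGRIN2D replicate 4 and NoASP shSCR replicate 1 are not among the 14 libraries. Every line was a polyclonal pool of puromycin-selected 4T1 cells that carried a lentiviral pLKO vector, with 1 non-targeting hairpin as the control for both knockdowns. How many hairpin sequences made the knockdown spheroids that were sequenced is not given in the sources used here. A gene counted as shared when it passed the test in the same direction in each knockdown taken alone, against the mean of both shSCR groups, and 83 of 19525 genes did so.

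*Grin2d* encodes a subunit of the NMDA receptor, a glutamate-gated calcium channel that aspartate can also open. *Dhps* encodes deoxyhypusine synthase, which begins the hypusine modification of the translation factor eIF5A. A pathway that runs from the receptor to hypusine would place both genes in 1 line, so a comparison of both knockdowns with the control hairpin asks which transcripts respond to either. A change that belongs to the control hairpin, or to its integration and selection, would also appear in both knockdowns, and with 1 control hairpin these possibilities cannot be told apart.

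*Dhps* (ENSMUSG00000060038) was at 5.57, 5.46, 7.62 and 9.08 CPM (counts scaled to library size and between libraries) in the ASP shDHPS libraries, at 19.1 to 22.8 CPM in ASP shGRIN2D and at 16.7 to 23.8 CPM over the 7 shSCR libraries. It fell by 1.53 on the log2 scale in ASP shDHPS (standard error 0.14, edgeR adjusted p = 1.68e-06, by Benjamini-Hochberg over all genes), and the ASP shDHPS libraries did not overlap any other group. *Grin2d* (ENSMUSG00000002771) was at 2.06, 2.17 and 3.13 CPM in ASP shGRIN2D, at 2.21 to 4.59 in ASP shDHPS and at 3.05 to 6.95 in the shSCR libraries. Its log2 fold change of -0.79 in ASP shGRIN2D did not pass the threshold (standard error 0.26, edgeR adjusted p = 0.155), and the libraries overlapped. In these libraries the labels of ASP shGRIN2D are therefore not supported by a call of their target. Why *Grin2d* missed the threshold was not tested, and at this low level a missed call does not show that the knockdown was absent. The paper reports a quantitative PCR of *Grin2d* in silenced and control spheroids of the same cell line. It also reports less labeled aspartate on the surface of spheroids silenced for *Grin2d*. Whether the sequenced spheroids were among those measured is not given in the sources used here.

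Total counts lay between 12731123 and 23231378 per library. Replicate 2 of both shSCR groups stood apart on the first principal component (15.0% of the variance), at -45.8 and -33.5 against -14.8 to 9.37 for the other shSCR libraries. For some genes and lists, values without these 2 libraries are also given below. The summed level of 6 markers of 4T1 carcinoma cells (such as *Krt8* and *Epcam*) was 4068 to 4232 CPM in the shSCR libraries and 3149 to 3812 CPM in the knockdown libraries, without overlap. Of these 6, *Krt8*, *Krt18*, *Krt14* and *Epcam* were called lower in the knockdowns pooled against both shSCR groups. *Cdh1* and *Cldn7* were not (log2 fold change -0.065 and -0.27, edgeR adjusted p = 0.675 and 0.0520). Of the macrophage markers, 4 of 5 were measured, with a sum of 6.69 to 13.6 CPM in shSCR and 8.57 to 17.6 CPM in the knockdowns. Of the fibroblast markers 2 of 5 and of the endothelial markers 2 of 3 were measured, with sums of at most 40.7 and 0.550 CPM, and none of 4 T cell markers was in the table. The fibroblast sum was nearly all *Pdgfra*, with *Dcn* at most 0.0535 CPM. In bulk RNA, fewer cells of a type and less RNA per cell cannot be told apart.

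Fitted over all 14 libraries, the pooled knockdowns differed from the pooled shSCR groups in 693 genes (3.55% of 19525), 265 higher (1.36%) and 428 lower (2.19%). Taken alone, ASP shGRIN2D called 129 genes higher (0.661%) and 204 lower (1.04%), and ASP shDHPS called 553 higher (2.83%) and 733 lower (3.75%). The 83 shared genes were 28 higher (0.143% of all genes) and 55 lower (0.282%). Shares over all genes, here and below, include genes below 5 CPM. Of 9857 genes with a mean of 5 CPM or more and an annotated 3′ UTR, 217 were higher and 362 lower in the pooled comparison. Of these 9857, 22 were shared higher and 50 shared lower. All 83 were also called in the pooled comparison, whose remaining calls were 398 that passed in ASP shDHPS alone only, 120 that passed in ASP shGRIN2D alone only and 92 that passed in neither alone. Another 11 genes were called in each knockdown in opposite directions, and none of these was called in the pooled comparison. The median pooled log2 fold change was 0.73 among the shared higher genes and -0.60 among the shared lower genes, against -0.0015 over the 10224 genes whose mean reached 5 CPM, values that describe the selection and test nothing.

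Of the 83 genes, 46 changed by at least 1.5-fold and 16 by at least 2-fold in the pooled comparison. The CPM of all 7 knockdown libraries lay apart from that of all 7 shSCR libraries for 66 of them, 18 higher and 48 lower, against 243 of all genes (1.24%), and since the genes were chosen on these values this is a description. The fold was larger in ASP shGRIN2D for 55 shared genes and larger in ASP shDHPS for 28. The knockdowns were also compared with each other, which called 550 genes (2.82%) and differed for 4 shared genes, *Gpnmb*, *Padi3*, *Krt19* and *Olfm1*, while for the other shared genes this test did not pass, which does not show that their folds were equal. The last genes inside the threshold were *Pate14*, *Tmed1* and *Cth*, with a larger adjusted p of 0.0471, 0.0484 and 0.0498, and the first outside were *Rpl35a-ps2*, *Susd1* and *Hacd3*, with 0.0521, 0.0528 and 0.0542.

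**Figure D1:**
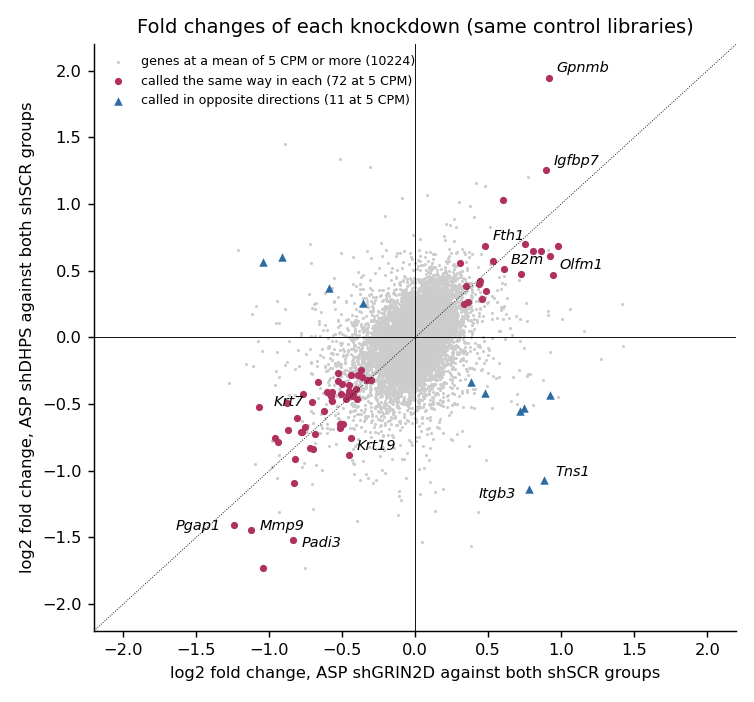
Log2 fold change of ASP shDHPS (vertical) against that of ASP shGRIN2D (horizontal), each against the mean of both shSCR groups, for the 10224 genes whose mean reached 5 CPM, of which 4 lie outside the axes. Red points are the 72 shared genes at this level and blue triangles the 11 genes called in opposite directions; both axes use the same shSCR libraries, so the tilt of the grey cloud is not a result, and the dotted line marks equal folds.

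The count of shared genes depended on single libraries. It was 33, 38 and 37 without ASP shGRIN2D replicate 1, 2 or 3, 50 without NoASP shSCR replicate 2 and 51 without NoASP shSCR replicate 4. The pooled count was 425, 386 and 381 without the same ASP shGRIN2D replicates, 322 without NoASP shSCR replicate 2 and 429 without NoASP shSCR replicate 4. In the 14 fits that each left out 1 library, 17 genes stayed shared throughout. The 10 lower genes among them were *Krt7*, *Esrp1*, *Ripk4*, *Sox15*, *Mmp9*, *Pgap1*, *Nmnat2*, *Samd12*, *Trp53i11* and *Lilrb4b*, and the 7 higher genes were *B2m*, *Gpnmb*, *Olfm1*, *Cryab*, *Emp3*, *H2bc4* and *Hmga2*. Without replicate 2 of both shSCR groups, 69 genes were shared, 55 of them among the 83.

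Several keratins and the splicing factor *Esrp1* fell in both knockdowns. Keratins form the intermediate filaments of epithelial cells, and 4T1 cells are epithelial in origin. Of 19 measured genes of an epithelial list, 8 were lower and 0 higher in the pooled comparison, against 2.19% and 1.36% of all genes. ASP shGRIN2D alone called 7 lower and 0 higher (1.04% and 0.661% of all genes). ASP shDHPS alone called 10 lower and 1 higher (3.75% and 2.83% of all genes). Shared were 5, *Krt7*, *Krt15*, *Krt18*, *Krt19* and *Esrp1*, all lower, against 0.282% of all genes. The median pooled log2 fold change of the list was -0.26, against -0.0015 over all genes at 5 CPM. The shared count was 4 without replicate 2 of both shSCR groups, 3 with ASP shSCR alone as the control and 2 with NoASP shSCR alone.

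*Krt7* (ENSMUSG00000023039), a keratin of simple epithelia, was at 927, 824, 868 and 829 CPM in ASP shSCR and at 827, 878 and 815 CPM in NoASP shSCR. It was at 554, 526 and 576 CPM in ASP shGRIN2D and at 642, 531, 605 and 541 CPM in ASP shDHPS. Every knockdown library lay below every shSCR library. The log2 fold change was -0.62 in ASP shGRIN2D (standard error 0.08, edgeR adjusted p = 0.000117) and -0.55 in ASP shDHPS (standard error 0.07, edgeR adjusted p = 0.000104), and the difference between the knockdowns was 0.07 (95% confidence interval -0.11 to 0.25).

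*Krt19*, the smallest keratin, was at 141 to 200 CPM (median 152) in the shSCR libraries, at 117, 109 and 124 in ASP shGRIN2D and at 87.8, 87.2, 89.4 and 81.2 in ASP shDHPS. All 3 sets lay apart, with ASP shDHPS lowest. The log2 fold changes were -0.45 and -0.88, and the knockdowns differed by -0.43 (edgeR adjusted p = 0.0457). *Krt18*, the partner of *Krt8* in simple epithelia, was at 1114 to 1303 CPM (median 1190) in shSCR and at 816 to 1123 CPM (median 900) in the knockdowns, with an overlap of the highest knockdown and the lowest shSCR library. With each library left out in turn, *Krt18* stayed shared in 1 of 14 fits. *Krt15*, a keratin of basal epithelial cells, was low, at 3.00 to 7.41 CPM (median 5.09) in shSCR and at 1.27 to 2.52 CPM (median 1.84) in the knockdowns, without overlap, and its log2 fold changes were -1.004 and -1.60.

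*Esrp1*, a splicing factor of epithelial cells, was at 71.9 to 93.0 CPM (median 82.9) in the shSCR libraries and at 53.4 to 63.0 CPM (median 57.7) in the knockdown libraries. The arms did not overlap, and the log2 fold changes were -0.57 and -0.48 (edgeR adjusted p = 0.000776 and 0.00103). *Epcam*, an epithelial adhesion molecule, fell in the pooled comparison (-0.40, edgeR adjusted p = 0.000941) but passed the test alone only in ASP shDHPS (-0.49, against -0.30 with an adjusted p of 0.0631 in ASP shGRIN2D). *Cdh1*, which encodes E-cadherin, was at a pooled log2 fold change of -0.065 (edgeR adjusted p = 0.675). Of 10 measured mesenchymal genes, *Vim* and *Zeb2* were higher in the pooled comparison (0.31 and 0.46, edgeR adjusted p = 0.00689 and 0.0335) and none was shared. Over a list of all keratins, which was added after the values were seen, 8 of 19 were lower, 0 higher and 4 shared. Of all genes, 1.36% were higher and 2.19% lower in the pooled comparison, and 0.282% were shared lower.

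Of 25 measured integrins and laminins, which attach cells to the matrix, 3 were lower and 0 higher in the pooled comparison (against 2.19% and 1.36% of all genes), and *Lama3* and *Itga2* were shared. The list was mixed between the knockdowns, since ASP shGRIN2D alone called *Itgb3* and *Itga1* higher (0.78 and 0.46, edgeR adjusted p = 0.00175 and 0.0416) and *Itgb3* went in the opposite direction in ASP shDHPS. *Lama3*, the α chain of the laminin that anchors epithelia, was at 70.7 to 105 CPM (median 73.5) in shSCR and at 46.8 to 64.3 CPM (median 52.6) in the knockdowns, without overlap. Its 2 highest shSCR values were those of the replicate 2 libraries, and the pooled log2 fold change was -0.60 with them and -0.45 without them. *Itga2*, a collagen receptor subunit, was at 111 to 168 CPM against 91.7 to 112 CPM, with an overlap, and was not shared without these libraries (-0.32 and -0.22, edgeR adjusted p = 0.0753 and 0.149).

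Among secreted proteases and their receptors, a list added after the values were seen, 4 of 29 measured genes were shared and all 4 were lower. Over all genes, 0.282% were shared lower. *Mmp9*, a metalloproteinase that cleaves basement membrane collagen, was at 56.1, 110, 55.9 and 61.4 CPM in ASP shSCR and at 84.8, 49.3 and 61.0 CPM in NoASP shSCR. It was at 25.5, 32.5 and 35.2 CPM in ASP shGRIN2D and at 21.96, 22.3, 27.4 and 27.9 CPM in ASP shDHPS. All knockdown libraries lay below all shSCR libraries, and the replicate 2 libraries were the highest of each shSCR group. The log2 fold changes were -1.13 in ASP shGRIN2D and -1.45 in ASP shDHPS (edgeR adjusted p = 0.00189 and 4.81e-05), and -0.86 and -1.18 without both replicate 2 libraries.

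*Plau*, the urokinase that activates plasminogen, was at 190 to 211 CPM (median 196) in shSCR and at 144 to 181 CPM (median 155) in the knockdowns, without overlap. Its log2 fold changes were close, -0.33 and -0.32 (edgeR adjusted p = 0.0357 and 0.00914), with an interval of the difference from -0.17 to 0.19. *Htra1*, a secreted serine protease, and *F2rl1*, a receptor that such proteases activate, had pooled log2 fold changes of -0.40 and -0.33. *Plaur*, the receptor of urokinase, was higher in the pooled comparison (0.33, edgeR adjusted p = 0.0225) and was not shared. Without both replicate 2 libraries, *Plau* and *Htra1* were not shared (larger adjusted p of 0.0687 and 0.134, edgeR).

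**Figure D2:**
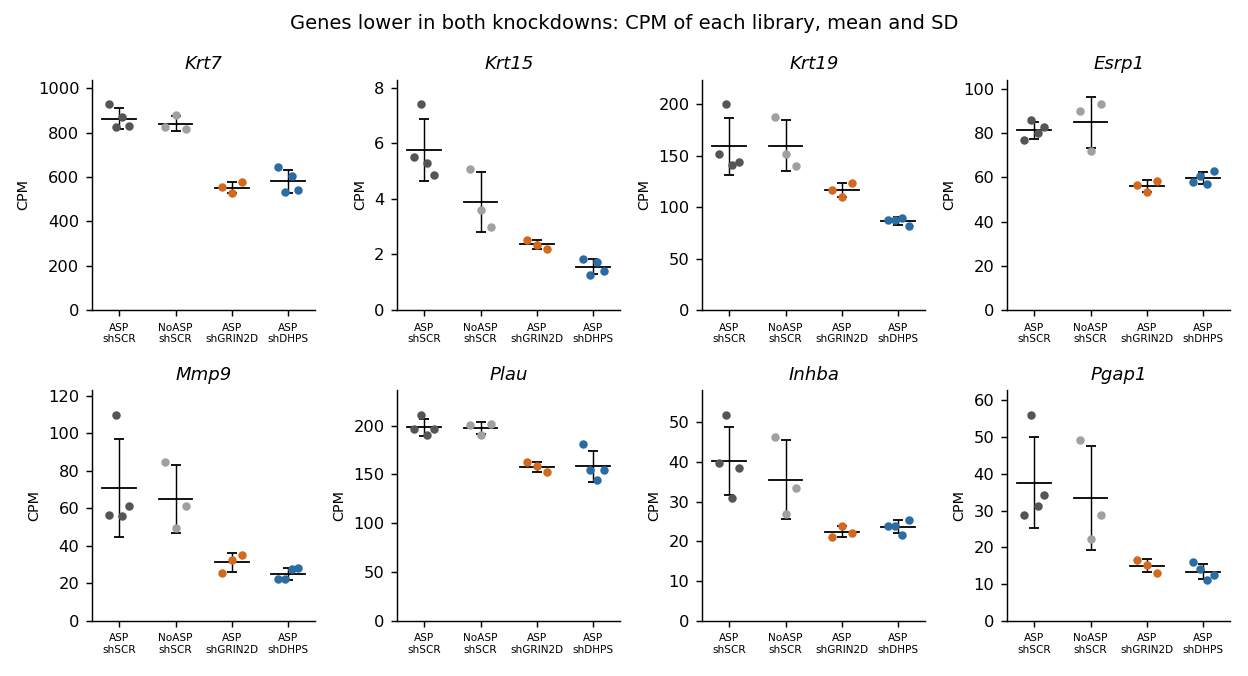
CPM of each library (points) with the mean (horizontal line) and SD (error bar) of each group, for 8 genes lower in both knockdowns, on linear axes from 0. In each panel the 7 knockdown libraries lie below the 7 shSCR libraries, as for *Krt7* (526 to 642 against 815 to 927 CPM), and for *Mmp9*, *Inhba* and *Pgap1* the highest point of each shSCR group is replicate 2.

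The next 4 shared lower genes were picked after their values were seen and stand for no list. *Inhba*, the subunit that forms activin A, was at 26.8 to 51.8 CPM (median 38.3) in shSCR and at 21.2 to 25.4 CPM (median 23.8) in the knockdowns. The arms did not overlap, and the log2 fold changes were -0.76 and -0.67 (edgeR adjusted p = 0.00782 and 0.00416), or -0.57 and -0.48 without both replicate 2 libraries. *Hhip*, which binds hedgehog ligands, was at 27.4 to 48.7 CPM against 15.8 to 27.4 CPM, with arms that only just did not overlap, and *Apcdd1*, an inhibitor of Wnt signaling, at 31.2 to 41.1 CPM against 19.5 to 26.4 CPM. Their pooled log2 fold changes were -0.74 and -0.70. *Runx2*, a transcription factor of bone and mammary cells, was at 51.3 to 66.9 CPM against 41.8 to 48.3 CPM, with a pooled log2 fold change of -0.43.

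The largest shared falls of genes with at least 5 CPM were those of *Gsta3*, *Lilrb4b*, *Pgap1*, *Mmp9*, *Padi3*, *Slc4a11*, *Dmd*, *Ptprz1*, *Nmnat2*, *Npr3*, *Tmem51* and *Cth*, between -1.39 and -0.78 in the pooled comparison, and for all 12 the arms did not overlap. *Pgap1*, which remodels the lipid anchor of GPI-linked proteins, was at 22.3 to 56.0 CPM (median 31.3) in shSCR and at 11.1 to 16.6 CPM (median 13.99) in the knockdowns, with log2 fold changes of -1.24 and -1.41. Its highest shSCR values, 56.0 and 49.3 CPM, were those of the replicate 2 libraries, which these fold changes include. *Gsta3*, a glutathione transferase, was at 5.86 to 11.5 CPM against 1.60 to 5.70 CPM (-1.04 and -1.73). *Padi3*, which converts arginine to citrulline in proteins, was at 11.7 to 19.8 CPM against 4.37 to 8.86 CPM, and its fall was larger in ASP shDHPS (-1.52) than in ASP shGRIN2D (-0.84, edgeR adjusted p of the difference = 0.0458). *Nmnat2*, an enzyme of NAD synthesis, was at 23.8 to 29.8 CPM against 11.7 to 20.1 CPM. *Cth*, which makes cysteine from cystathionine, passed narrowly in ASP shGRIN2D (-0.72, edgeR adjusted p = 0.0498) and stayed shared in 4 of 14 such fits. Counts of *Lilrb4b* are uncertain because it has a near-identical neighbor in *Lilrb4a*.

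*B2m* and 2 other genes of antigen presentation by MHC class I rose in both knockdowns. This system displays peptides on the cell surface to cytotoxic T cells, with β2-microglobulin as the invariant chain. Of 27 measured genes of a list added after the values were seen, 6 were higher and 0 lower in the pooled comparison. Over all genes these shares were 1.36% and 2.19%. ASP shGRIN2D alone called 7 higher and 0 lower (0.661% and 1.04% of all genes). ASP shDHPS alone called 4 higher and 1 lower (2.83% and 3.75% of all genes). From the list, *B2m*, *Nlrc5* and *H2-Q10* were shared, all higher, against 0.143% of all genes. The count of the list in the pooled comparison was 10 higher without replicate 2 of both shSCR groups.

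*B2m* (ENSMUSG00000060802), which encodes β2-microglobulin, was at 467, 447, 419 and 444 CPM in ASP shSCR and at 425, 458 and 403 CPM in NoASP shSCR. It was at 616, 688 and 690 CPM in ASP shGRIN2D and at 659, 551, 676 and 599 CPM in ASP shDHPS. Every knockdown library lay above every shSCR library. The log2 fold changes were 0.61 and 0.51 (edgeR adjusted p = 0.000117 and 0.000239), with a difference of -0.10 (95% confidence interval -0.28 to 0.09). *Nlrc5*, the transactivator of class I genes, was at 9.36 to 12.7 CPM (median 10.1) in shSCR and at 10.5 to 18.9 CPM (median 16.3) in the knockdowns, with an overlap of ASP shDHPS replicate 1. *Nlrc5* was not shared without both replicate 2 libraries, at log2 fold changes of 0.72 and 0.48 (edgeR adjusted p = 0.00741 and 0.0505). *H2-Q10*, one of several class I genes of like sequence whose counts are therefore uncertain, was at 3.16 to 4.48 CPM against 4.36 to 6.95 CPM.

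The heavy chains *H2-K1* and *H2-D1* rose in ASP shGRIN2D (0.53 and 0.56, edgeR adjusted p = 0.000364 and 0.000261), and in ASP shDHPS their log2 fold changes were 0.13 and 0.14 (adjusted p = 0.275 and 0.262). The knockdowns differed for both, by -0.39 and -0.42 (edgeR adjusted p = 0.0121 and 0.00998). *Tapbp*, which loads peptides, rose in ASP shDHPS (0.45, edgeR adjusted p = 0.00209) and was at 0.33 in ASP shGRIN2D (adjusted p = 0.0700). Of 29 measured genes of the type I interferon response, 3 were higher in the pooled comparison, *Cxcl10*, *Isg15* and *Oasl1*, against 1.36% of all genes. The knockdowns went different ways on this list. ASP shGRIN2D alone called 0 higher and 2 lower (0.661% and 1.04% of all genes). ASP shDHPS alone called 4 higher and 0 lower (2.83% and 3.75% of all genes). None of the 29 was shared. *Ccl2*, a chemokine, was the shared gene of 23 measured cytokines, at 0.278 to 2.56 CPM in shSCR and 1.35 to 3.52 CPM in the knockdowns, with an overlap and few counts.

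*Gpnmb* and *Lamp1* were the shared genes among those of the lysosome. Of 33 measured genes of lysosomes and their MiT/TFE regulators, 11 were higher and 0 lower in the pooled comparison. Without replicate 2 of both shSCR groups, 8 were higher. In ASP shDHPS alone 15 were higher and 1 lower, and in ASP shGRIN2D alone 2 were higher and 0 lower. Of all genes, 1.36% were higher and 2.19% lower in the pooled comparison. In ASP shDHPS alone 2.83% of all genes were higher and 3.75% lower, and in ASP shGRIN2D alone 0.661% and 1.04%. *Gpnmb*, a membrane glycoprotein of lysosomes and melanosomes, was at 11.1, 16.4, 13.8 and 15.9 CPM in ASP shSCR and at 12.6, 22.5 and 24.3 CPM in NoASP shSCR. It was at 27.4, 32.1 and 35.6 CPM in ASP shGRIN2D and at 51.9, 60.6, 73.4 and 73.0 CPM in ASP shDHPS. All shSCR libraries lay below ASP shGRIN2D, and these below ASP shDHPS. The rise was 0.92 in ASP shGRIN2D and 1.95 in ASP shDHPS, and the difference of 1.03 passed the test (edgeR adjusted p = 0.00171).

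*Lamp1*, a main protein of the lysosomal membrane, was at 582 to 672 CPM (median 634) in shSCR, at 750, 808 and 790 in ASP shGRIN2D and at 984, 911, 953 and 894 in ASP shDHPS. All 3 sets lay apart, with log2 fold changes of 0.30 and 0.56 (edgeR adjusted p = 0.0293 and 2.94e-05). Without both replicate 2 libraries *Lamp1* missed the threshold in ASP shGRIN2D (0.27, edgeR adjusted p = 0.0855). The proteases *Ctsb* and *Ctsz* and the hexosaminidase subunit *Hexa* rose in the pooled comparison by 0.27, 0.34 and 0.49 without overlap of the arms, and alone they passed in ASP shDHPS only (edgeR adjusted p = 0.00481, 0.000405 and 0.00108, against 0.275, 0.226 and 0.114 in ASP shGRIN2D). *Fth1*, the heavy chain of ferritin and chosen after its values were seen, had the highest CPM of the shared genes, at 6078 to 8203 CPM (median 7487) in shSCR and at 9383 to 12665 CPM (median 11244) in the knockdowns, without overlap. Its log2 fold changes were 0.48 and 0.69.

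The largest shared rises of genes with at least 5 CPM in an arm were those of *Derpc*, *Gpnmb*, *Igfbp7*, *H2bc4*, *Msrb3*, *Tmem158*, *Emp3*, *H2-Q10*, *Amigo2*, *Cryab*, *Olfm1* and *Nlrc5*. *Derpc* was at 0.910 to 3.22 CPM in shSCR, at 13.6, 18.2 and 2.00 CPM in ASP shGRIN2D and at 12.4, 5.46, 48.9 and 10.8 CPM in ASP shDHPS. It had the largest fold (3.07 pooled) and the widest spread, it overlaps *Chtf8*, and its counts are uncertain. *Igfbp7*, a secreted binding protein of growth factors, was at 2.56 to 6.46 CPM (median 4.56) against 7.27 to 11.8 CPM (median 9.29), without overlap. *Cryab*, a small heat shock protein, was at 9.997 to 14.8 CPM against 15.2 to 21.5 CPM (0.80 and 0.64). *Olfm1*, a secreted glycoprotein of neural tissue, was at 98.9 to 126 CPM in shSCR and rose more in ASP shGRIN2D (233, 233 and 210 CPM) than in ASP shDHPS (152 to 169 CPM), with a difference of -0.47 between the knockdowns (edgeR adjusted p = 0.00800).

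The histone genes *H2bc4* and *H3c14* belong to families of near-identical copies and are uncertain. *H3c14* had 0 counts in every shSCR library, 12, 23 and 0 in ASP shGRIN2D and 27, 0, 0 and 16 in ASP shDHPS, so no fold is given. *Crtap*, which takes part in collagen prolyl hydroxylation, was the shared gene of 20 measured collagen-modifying enzymes, at 81.2 to 98.5 CPM in shSCR and at 106 to 118 CPM in the knockdowns, without overlap (0.36 and 0.27). *Hmga2*, a chromatin protein of embryonic and tumor cells that was chosen after its values were seen, was at 428 to 488 CPM against 537 to 673 CPM, also without overlap (0.46 and 0.29).

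**Figure D3:**
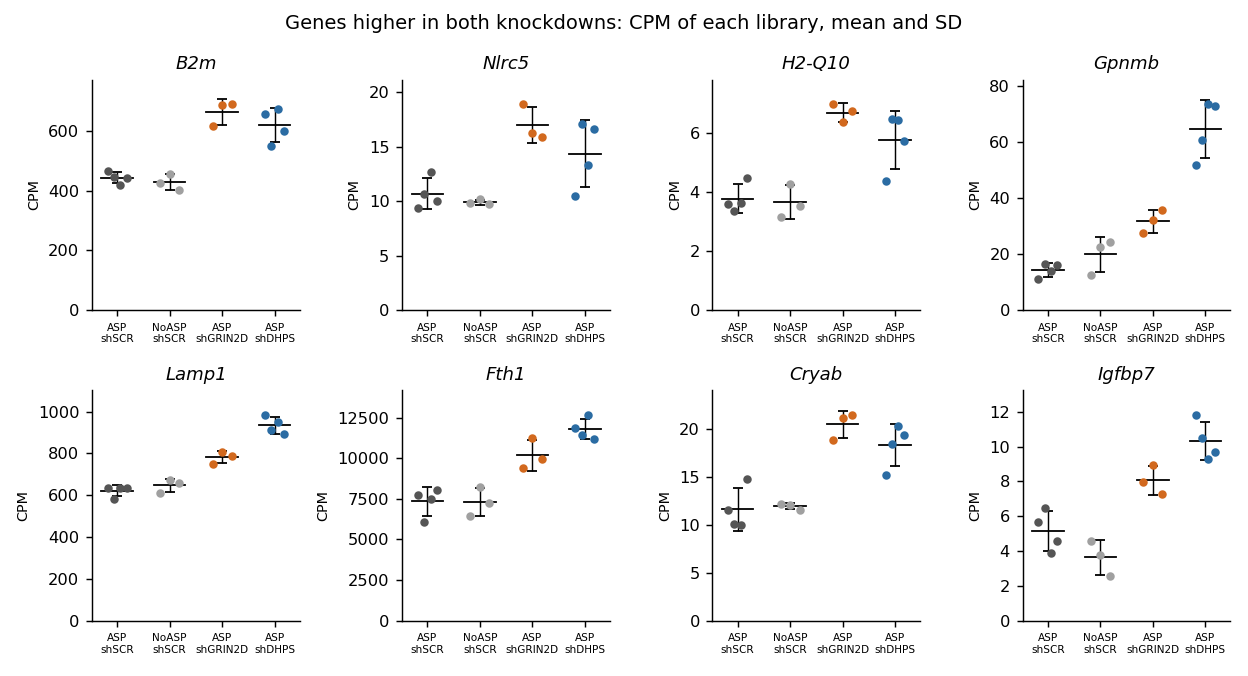
CPM of each library (points) with the mean (horizontal line) and SD (error bar) of each group, for 8 genes higher in both knockdowns, on linear axes from 0. For *Gpnmb*, *Lamp1* and *Fth1* the mean of ASP shDHPS is the highest, and for *B2m*, *Nlrc5*, *H2-Q10* and *Cryab* that of ASP shGRIN2D; *Nlrc5* and *H2-Q10* show the lowest knockdown point, ASP shDHPS replicate 1, within the range of shSCR.

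Of 23 lists written for pathways of the study and for general cell programs, 18 held no shared gene. With 0.143% of all genes shared higher and 0.282% shared lower, a list of this size without one is no result about the list. In the pooled comparison, 0 of 10 measured CREB family genes and 0 of 26 ligands, receptors and Smads of TGF-β passed the test, and of the 7 measured NMDA receptor and hypusination genes *Dhps* itself did. Of 17 TGF-β response genes 2 were higher and 2 lower, and of 25 collagen chains 1 was higher and 1 lower. These were 23.5% and 8% of the lists, against 3.55% of all genes called in the pooled comparison. *Col6a1*, the collagen that rose, did so in ASP shGRIN2D (0.76, edgeR adjusted p = 0.00123) and was at 0.13 in ASP shDHPS (adjusted p = 0.570). Of 18 calcium and CREB-responsive early genes 1 was higher, *Arc*.

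The other lists without a shared gene held from 0 to 3 pooled calls each. Of 16 measured polyamine genes 1 was higher, *Odc1*, and 1 lower, *Paox*, of 22 ATF4 targets 2 were higher and 1 lower, of 19 p53 targets 1 was higher and 1 lower, and of 22 glutathione and NRF2 targets 1 was higher and 2 lower. These were 10.5% to 13.6% of each list, against 3.55% of all genes, and their directions were mixed. The share of all genes includes many genes below 5 CPM, while most members of these lists were at or above it. Of 9857 genes at that level with an annotated 3′ UTR, 217 were higher and 362 lower, so the excess of the lists is smaller than these shares show. Of 20 genes of aspartate and glutamate handling 3 were lower (15%), of 30 cell cycle genes 2, of 23 cholesterol synthesis genes 1, and of 20 glycolysis and 14 small RNA genes 0. Of 22 hypoxia genes 3 were lower, *Pdk1*, *Ankrd37* and *Epas1* (13.6%). *Ankrd37* was at 26.3 and 16.9 CPM in the replicate 2 libraries of shSCR, at 2.06 to 3.85 CPM in the other shSCR libraries and at 1.20 to 2.13 CPM in the knockdowns, and without the replicate 2 libraries 1 hypoxia gene was called.

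Of 24 Hallmark gene sets in the deposited collection, 8 held no shared gene, among them TGF-β signaling, hypoxia, both MYC target sets, p53 and oxidative phosphorylation. Among the others, shared genes stood in epithelial-mesenchymal transition (2 higher and 5 lower of 159 measured), early estrogen response (1 higher and 5 lower of 178), interferon γ response (4 higher and 1 lower of 187) and coagulation (4 lower of 96). *Htra1* and *Itga2* stand in both the first and the last of these sets, so the sets do not count as separate evidence. Their median pooled log2 fold changes were -0.022, -0.060, -0.0043 and -0.059, against -0.0015 over all genes. Over all genes, 0.143% were shared higher and 0.282% shared lower.

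Genes that went in opposite directions give the contrast to the shared genes. The 11 were *Itgb3*, *Tns1*, *Ppt1*, *Trib2*, *Dmp1*, *Plxna4*, *Ccne1*, *Deptor*, *Arl6ip1*, *Anxa8* and *Mgp*, and the knockdowns differed for each. *Itgb3*, an integrin subunit, was at 40.5, 33.5 and 28.9 CPM in ASP shGRIN2D, at 16.1 to 25.2 CPM in shSCR and at 8.06 to 11.1 CPM in ASP shDHPS, without overlap. *Ppt1*, a lysosomal thioesterase, went the other way, at 42.2 to 50.4 CPM in ASP shGRIN2D, 69.2 to 76.0 CPM in shSCR and 84.2 to 102 CPM in ASP shDHPS.

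Since the same 7 shSCR libraries served both knockdowns, each knockdown was also set against 1 shSCR group alone, so that no control library was shared. ASP shGRIN2D against ASP shSCR called 83 genes higher (0.425%) and 143 lower (0.732%), and ASP shDHPS against NoASP shSCR called 122 higher (0.625%) and 232 lower (1.19%). Of these, 12 were higher in both, which is 14.5% of the 83 and 9.84% of the 122, and 20 were lower in both, 13.99% of the 143 and 8.62% of the 232, while 5 went in opposite directions. With the groups exchanged, ASP shGRIN2D against NoASP shSCR called 48 higher (0.246%) and 85 lower (0.435%), and ASP shDHPS against ASP shSCR called 322 higher (1.65%) and 502 lower (2.57%). Of these, 11 were higher in both (22.9% of the 48, 3.42% of the 322) and 21 lower in both (24.7% of the 85, 4.18% of the 502), and 8 went in opposite directions. Same-numbered libraries of ASP shDHPS and NoASP shSCR deviated together in all 3 pairs, and with the replicate number as a block their comparison called 1036 genes in place of 354. With the block in both comparisons of a pair, the genes called the same way in both were 150 in place of 32 for the first pair and 92 in place of 32 for the exchanged pair, although the numbers of ASP shGRIN2D were not shown to pair its libraries with the others.

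The 83 shared genes were chosen against the mean of both shSCR groups, so agreement of sign with either group alone mainly describes the choice. All 83 had the same sign in the 4 comparisons with a single shSCR group, and 19 were called in all 4. The 12 lower genes among these were *Krt7*, *Esrp1*, *Ripk4*, *Apcdd1*, *Cwh43*, *Trp53i11*, *Samd12*, *Nmnat2*, *Ptprz1*, *Cldn9*, *Mmp9* and *Pgap1*, and the 7 higher genes *H2bc4*, *Msrb3*, *Emp3*, *Amigo2*, *Cryab*, *Olfm1* and *B2m*. ASP shSCR and NoASP shSCR themselves differed in 0 genes by edgeR and in 0 by DESeq2, with 424 genes at an unadjusted p under 0.05 in edgeR and 2 called with the replicate block, and for 6 of the shared genes this unadjusted p was under 0.05. Both shSCR groups carry the same hairpin, so a change made by that hairpin would remain in all of these comparisons.

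**Figure D4:**
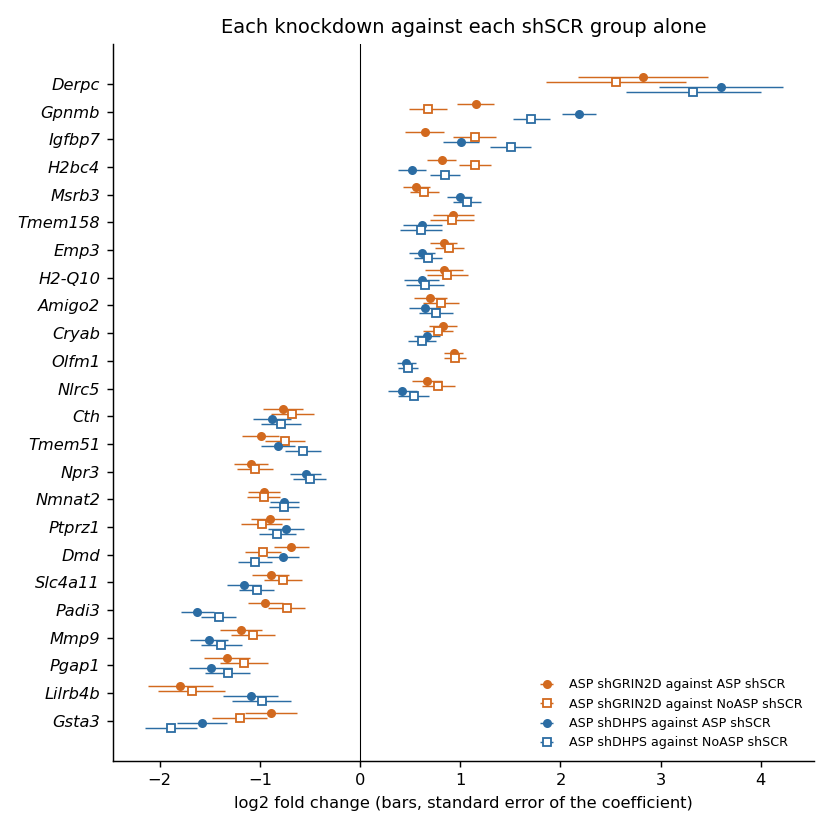
Log2 fold change (horizontal, bars give the standard error) of the 24 genes with the largest shared rises and falls, for ASP shGRIN2D (orange) and ASP shDHPS (blue) against ASP shSCR (filled circles) or NoASP shSCR (open squares) alone. All 4 values of every gene lie on the same side of 0, which mainly describes how the genes were chosen, and *Derpc* has the widest bars.

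Sequence in the 3′ UTR was examined because a hairpin can lower transcripts that carry a match to its first bases. Among words of 7 bases that stood in the 3′ UTR of at least 10% of a set, those with the highest share relative to all genes were, for the genes lower in ASP shGRIN2D, TTCATGA and TCATGAA, which overlap by 6 bases. At least 1 of them stood in 112 of the 188 lower genes of ASP shGRIN2D (59.6%) with an annotated 3′ UTR and a mean of 5 CPM or more, against 1882 of all 9857 such genes (19.1%). For the 622 lower genes of ASP shDHPS the share was 21.5%, and for the 92 and 465 higher genes it was 9.78% and 15.5%. The sets differed in median 3′ UTR length, 1573 and 1564 bases for the lower genes and 1194.5 and 914 for the higher genes, against 1237 for all. Over all genes the median was 1019 bases without either word and 2165.5 with 1 site. The shares were not adjusted for length. The sites below are from shared lower genes and show the words, in capitals, with 9 bases on each side (GENCODE transcripts, GRCm38, transcript strand).
*Pgap1*, chr1:54480100-54480125, minus strand: aatggcattTTCATGAActttcaaat
*Nmnat2*, chr1:153118388-153118413, plus strand: ctaaaaggaTTCATGAAcactctatt
*Inhba*, chr13:16028630-16028654, plus strand: aagttcaaaTTCATGAgactacatg
*Plau*, chr14:20842782-20842806, plus strand: aatgggtcaTTCATGAgatctgctg
*Ripk4*, chr16:97742055-97742079, minus strand: ggatactctTTCATGAcaggaagta
*Esrp1*, chr4:11359219-11359243, minus strand: ttgcatatgTCATGAAgtgtttact

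The shared lower genes fell between the sets of the knockdowns. Of 50 with an annotated 3′ UTR, 22 held either word (44.0%), against 65.2% of the 138 genes lower in ASP shGRIN2D and not shared and 19.6% of the 572 genes lower in ASP shDHPS and not shared. The words were chosen from the lower genes of ASP shGRIN2D, which include the shared ones, so these shares describe the sets and test nothing. By the rule all of these genes also fell in ASP shDHPS. The 22 genes with a word had median log2 fold changes of -0.55 in ASP shGRIN2D and -0.43 in ASP shDHPS, and the 28 genes without it -0.66 and -0.54. The fall was larger in ASP shGRIN2D for 16 of the 22 and for 17 of the 28. *Pgap1* held the words at 5 places and *Nmnat2* at 2. Leaving out genes found to hold either word left 60 shared genes, 27 higher and 33 lower. The 60 include genes that were not searched, since 72 of the 83 shared genes had both 5 CPM and an annotated 3′ UTR.

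Genes lower under the control hairpin would appear as higher in both knockdowns. Among the 217 genes higher in the pooled comparison, the word with the highest relative share was GCTAATA, in 13.4% against 6.39% of all genes. It stood in 11.96% of the genes higher in ASP shGRIN2D, in 9.25% of those higher in ASP shDHPS and in 3 of the 22 shared higher genes with a 3′ UTR. Ranked over the small shared sets themselves, the leading words were GTTCGGA, in 3 of 22 shared higher genes (13.6%, against 1.13% of all genes), and TTAACGC, in 6 of 50 shared lower genes (12%, against 1.41%), the first of 3257 and of 8662 words ranked, each resting on a few genes. No hairpin sequence was used here, and a match of these words to the hairpins was not tested. The cAMP response element TGACGTCA, the site of CREB, stood in 303 of 8090 promoters of 300 bases (3.75%; 250 before to 50 after the start, RefSeq, GRCm38.p6, a word that reads the same on both strands), in 1 of 33 promoters of shared lower genes, that of *Hhip*, and in 0 of 15 of shared higher genes.

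**Figure D5:**
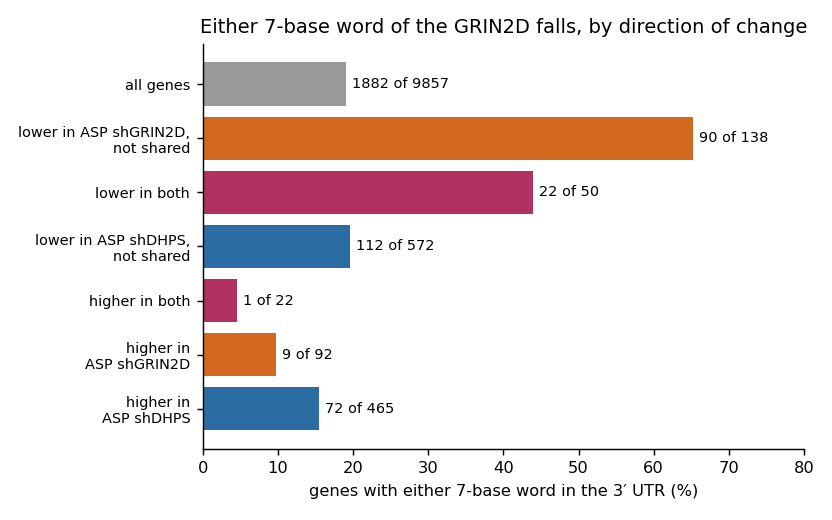
Share of genes (horizontal, %) whose 3′ UTR holds either 7-base word that led among the genes lower in ASP shGRIN2D, for all genes and for sets by direction, with the counts beside each bar. The bar of the genes lower in both knockdowns (22 of 50) lies between those of the genes lower in ASP shGRIN2D only (90 of 138) and in ASP shDHPS only (112 of 572). The shares are not adjusted for 3′ UTR length, which differed between the sets.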

How the data were processed

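The authors trimmed reads with Trim Galore 0.6.6, mapped them to GRCm39 with STAR 2.6.1 and estimated abundance with Salmon 1.4.0. The deposited table held counts, Salmon estimates rounded by the authors to whole numbers, for genes expressed in at least 2 replicates of a condition. Salmon divides reads among like transcripts, so counts of gene copies are less certain. The study describes replicates as independent spheroid pellets, and the sources used here do not say what a shared replicate number stands for. Total counts lay between 12731123 and 23231378, and genes below 5 CPM are less precise.

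All 19525 genes (535 named by identifier) were fitted with edgeR 4.0.16 (R 4.3.3), TMM scaling and 4 groups, by quasi-likelihood tests of contrasts in which each group weighs equally. Benjamini-Hochberg adjustment covered all genes, with calls under 0.05, and fold changes are log2 with the standard error of the coefficient. DESeq2 1.42.0 was an alternative, beside RLE and library-size scaling, filterByExpr, a robust prior, either shSCR group alone, arms as the only term, a replicate block, a test against 1.5-fold and each library left out. Same-numbered libraries of NoASP shSCR deviated together with those of ASP shDHPS (r = 0.205 to 0.373) and of ASP shSCR (0.203 to 0.514). Between ASP shSCR and ASP shDHPS r was 0.040 to 0.258, and between the other groups -0.117 to 0.231. The script was also run on simulated counts with known changes of a fixed size. That simulation held no replicate pairing and no outlying library, so it does not cover these features of the data.

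Members and lists were chosen with earlier results of these data known. Named genes were the 12 largest rises and 12 largest falls among shared genes with 5 CPM in the higher arm, the opposite genes with the smallest larger p (at most 6), the silenced genes and list genes called in the pooled comparison, and others are named as chosen later. The 3′ UTRs (GENCODE, GRCm38, longest per gene) were matched by gene identifier, and no coordinates were converted. The authors' fold changes and p-values were not used. A gene and a gene set among the lists are not reported here.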

Additional observations from a re-analysis of the deposited data

Results flagged for a closer look

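In 178 groups of 4 libraries of named genes, 1 library lay far from the other 3 in 16, and chance flags about 1 in 20 groups. ASP shSCR replicate 2 was the library in 10 of the 16. It was high for *Ankrd37* (26.3 CPM against 2.75 to 3.85), *Ddit4* (308 against 108 to 127), *Bhlhe40* (137 against 37.6 to 48.2), *Pdk1* (107 against 25.8 to 32.0), *Tnfaip3* (114 against 62.6 to 69.7), *Mmp9* (110 against 55.9 to 61.4) and *Lama3* (105 against 70.7 to 73.5). It was low for *Olfm1* (98.9 against 123 to 126), *Lamp1* (582 against 633 to 636) and *Crtap* (81.2 against 89.97 to 91.5). In other libraries, *Hmox1* was at 45.2 CPM in ASP shSCR replicate 3 (others 29.3 to 31.7) and *Epas1* at 1.399 in ASP shSCR replicate 1 (others 0.501 to 0.550). *Derpc* was at 48.9 CPM in ASP shDHPS replicate 3 (others 5.46 to 12.4), *Dmp1* at 24.9 in replicate 4 (others 21.1 to 21.7), and *Col6a1* at 32.9 and *Col7a1* at 15.5 in replicate 1 (others 57.2 to 62.0 and 29.0 to 30.2).

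The knockdowns differed (ASP shDHPS minus ASP shGRIN2D, log2, edgeR adjusted p under 0.05) for 15 genes called in each. Among shared genes the difference was 1.03 for *Gpnmb*, -0.68 for *Padi3*, -0.47 for *Olfm1* and -0.43 for *Krt19*. Among opposite genes it was -1.95 for *Tns1*, -1.92 for *Itgb3*, -1.36 for *Mgp*, -1.28 for *Dmp1*, -1.26 for *Anxa8*, -0.89 for *Trib2*, -0.71 for *Deptor*, 0.61 for *Arl6ip1*, 0.96 for *Ppt1*, 1.51 for *Plxna4* and 1.60 for *Ccne1*.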

How the results depend on the processing

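The counts for the pooled knockdowns, ASP shGRIN2D alone, ASP shDHPS alone and the shared genes were 693, 333, 1286 and 83. They were 1201, 627, 2041 and 199 with DESeq2, 1346, 695, 2504 and 231 with the replicate block, 129, 133, 354 and 26 with NoASP shSCR alone as the control, and 5, 14, 26 and 0 in edgeR's test against 1.5-fold, where 101 genes had an unadjusted p under 0.05 the same way in each knockdown. With ASP shSCR alone as the control the pooled, ASP shDHPS and shared counts were 386, 824 and 55. Without both shSCR replicate 2 libraries the pooled and ASP shDHPS counts were 354 and 772, and without these and ASP shDHPS replicate 1, chosen after the data were seen, the ASP shGRIN2D and ASP shDHPS counts were 636 and 773. The shared count was 28 with Benjamini-Hochberg on the larger p and 32 with either pair of separate controls. The other alternatives kept these counts within 1.5 times. Leaving out 1 library gave 322 to 950 pooled, 122 to 451 in ASP shGRIN2D, 640 to 1886 in ASP shDHPS and 33 to 122 shared genes. The ASP shGRIN2D count was 122, 135 and 132 without its replicate 1, 2 or 3 and 214 without NoASP shSCR replicate 4, and the ASP shDHPS count was 640 without its replicate 3 and 719 and 845 without NoASP shSCR replicate 2 or 4. The comparison of the knockdowns called 550 genes, 920 with DESeq2, 1468 with the block, and 209 to 708 with a library left out (209, 310 and 275 without ASP shGRIN2D replicate 1, 2 or 3). ASP shSCR against NoASP shSCR called 0, 2 with the block and 0 to 1 with a library left out (1 without NoASP shSCR replicate 3). The cause of these shifts was not tested.

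Of 83 shared genes, 82 stayed shared with the block, 81 with DESeq2, and 11 in all 26 alternative fits other than the test against 1.5-fold, which calls no shared gene. The replicate numbers did not pair all groups of the pooled comparison (correlations of same-numbered deviations from -0.117 to 0.514), and the fit with the block is an alternative only. For named genes, 1955 of 2314 alternative values kept direction and call, 349 lost the call, 3 gained it (*Dmp1* at 0.31 and 0.32, *Grin2d* at -0.61) and 7 changed sign, none of them called. With ASP shSCR alone as the control *Trib2* was at -0.000817 and *Dmp1* at -0.011, with arms as the only term *Tns1* was at 0.090, *Ppt1* at 0.030 and *Plxna4* at 0.15, and *Tns1* was at 0.019 without both replicate 2 libraries and at 0.11 without ASP shDHPS replicate 1 as well.

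Genes with few counts, such as *Ccl2* and *H3c14*, carry more counting error, and ASP shGRIN2D has 3 libraries.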
